A study of Mus musculus with 8 samples.

Results

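The genes described here are 37 members of the pathway by which macrophages recognise LPS, the endotoxin of Gram-negative bacteria, and switch on NF-kB. They were chosen by name, as LPS recognition proteins, adaptors, kinases and ubiquitin ligases, NF-kB subunits, interferon regulatory factors, feedback inhibitors and Tnf, and their probes were found through the transcript each probe was designed on. All 37 had a probe on the array (50 probes), of 20886 named genes in all.

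The samples were macrophages isolated from mice given LPS, with total RNA labelled in 1 colour (Cy3) and hybridised to 8 Agilent whole-genome arrays. There were 4 arrays of EP2-KO mice (EP2KO 1 to 4), which lack the prostaglandin E2 receptor EP2 (gene Ptger2), and 4 arrays of wild-type mice (WT 1 to 4). All mice of both genotypes had received LPS, so no untreated level of any gene was measured, and the labels record every mouse as male. The strain, the age, the dose of LPS, the time after it, the tissue the cells came from, the allele and how many mice went into a sample are not given in the sources used here. Nothing states that the replicates came from separate mice, and the p-values cover only the spread among these 8 samples, which may be technical.

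Each of 2 slides held 2 arrays of either genotype, and the slides were scanned on separate days. Slide 2 carried EP2KO 3, EP2KO 4, WT 3 and WT 4, and slide 1 carried EP2KO 1, EP2KO 2, WT 1 and WT 2. The first principal component over all features held 61.0% of the variance and parted the slides. EP2KO arrays held positions 3 and 4 and WT arrays positions 1 and 2 of both slides, and these cannot be told apart from genotype. Between 25555 and 32147 of 39429 gene probes were well above background on an array, and 0 gene spots were saturated. The targeted gene went with the labels: the level of Ptger2 was 0.357, 0.287, 0.323 and 0.224 on EP2KO 1 to 4, against 0.972, 1.12, 0.899 and 1.00 on WT 1 to 4. The label of sex did not go with the arrays: both probes of Xist, which is transcribed from the inactive X chromosome of female cells, were well above background on all 8 arrays, whereas 5 probes of 4 Y-linked genes were so in 1 of 40 readings. Of 10 macrophage markers, 9 had a named probe, and all 9 were well above background on all 8 arrays.

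A level below is the background-corrected signal of a gene's probe divided by the array's 75th percentile, on a linear scale. Differences are log2 values and carry the SE (standard error) of the fit, and a gene counts as changed at an adjusted p under 0.05 over all 20738 features tested. Levels of different genes come from different probes and are not set against each other. Of the 37 genes, 36 were well above background on all 8 arrays and were tested. The exception was Rel, which encodes the c-Rel subunit: its probe was well above background on 3 of 4 EP2KO and 2 of 4 WT arrays, too few for a comparison under the filter.

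TLR4, with MD-2 (Ly96) and the carriers LBP and CD14, binds LPS at the cell surface. It signals through the adaptors MyD88 and TIRAP, and through TRIF (Ticam1) and TRAM (Ticam2), to IRAK kinases, the ubiquitin ligase TRAF6 and the kinase TAK1 (Map3k7). These activate the IkB kinase complex, which marks IkB proteins for destruction and so frees NF-kB dimers to enter the nucleus. NF-kB in turn induces several of its own brakes, among them IkB alpha (Nfkbia), IkB epsilon (Nfkbie) and A20 (Tnfaip3), so RNA of these genes is widely read as a sign of NF-kB activity in macrophages.

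Promoters of 5 members are printed, out of those whose genes differed between the slides and carry the kappaB consensus, the 10-base motif that NF-kB dimers bind. Each is the RefSeq sequence of assembly GRCm38.p6 from 250 bases before to 50 bases after the start of transcription, 5′ to 3′, with kappaB matches on either strand in capitals.
Nfkbia, chr12:55492598-55492897, minus strand: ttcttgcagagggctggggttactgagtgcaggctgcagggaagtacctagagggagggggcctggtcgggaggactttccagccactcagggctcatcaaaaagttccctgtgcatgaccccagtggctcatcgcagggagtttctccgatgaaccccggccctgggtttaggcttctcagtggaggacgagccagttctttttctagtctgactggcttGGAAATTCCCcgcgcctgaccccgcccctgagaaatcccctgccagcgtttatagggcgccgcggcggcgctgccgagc
Nfkbie, chr17:45555450-45555749, plus strand: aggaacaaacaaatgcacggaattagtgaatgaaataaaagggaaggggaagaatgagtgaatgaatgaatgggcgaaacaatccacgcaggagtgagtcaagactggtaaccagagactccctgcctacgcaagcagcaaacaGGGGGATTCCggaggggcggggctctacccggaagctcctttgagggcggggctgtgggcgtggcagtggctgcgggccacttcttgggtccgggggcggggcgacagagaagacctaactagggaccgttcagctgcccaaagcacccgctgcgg
Bcl3, chr7:19822706-19823005, minus strand: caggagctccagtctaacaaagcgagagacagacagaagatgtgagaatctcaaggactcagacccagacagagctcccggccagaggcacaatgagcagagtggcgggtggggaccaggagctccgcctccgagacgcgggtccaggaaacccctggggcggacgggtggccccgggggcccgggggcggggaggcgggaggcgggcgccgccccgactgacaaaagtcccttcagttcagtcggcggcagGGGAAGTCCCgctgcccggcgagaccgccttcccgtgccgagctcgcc
Tlr2, chr3:83841559-83841858, minus strand: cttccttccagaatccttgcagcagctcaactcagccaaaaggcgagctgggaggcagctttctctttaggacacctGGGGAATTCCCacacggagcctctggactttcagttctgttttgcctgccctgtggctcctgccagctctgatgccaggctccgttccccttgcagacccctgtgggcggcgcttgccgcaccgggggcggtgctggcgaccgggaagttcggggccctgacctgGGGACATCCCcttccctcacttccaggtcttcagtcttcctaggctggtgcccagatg
Tnfaip3, chr10:19015361-19015660, minus strand: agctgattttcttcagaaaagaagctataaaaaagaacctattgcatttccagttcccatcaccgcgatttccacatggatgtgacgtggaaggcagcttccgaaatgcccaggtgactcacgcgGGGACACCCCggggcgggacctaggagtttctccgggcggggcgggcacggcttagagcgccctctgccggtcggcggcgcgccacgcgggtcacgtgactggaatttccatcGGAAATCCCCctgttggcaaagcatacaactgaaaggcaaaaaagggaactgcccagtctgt
The match lay 29 bases before the start in Nfkbia and 106 bases before it in Nfkbie. In Bcl3 it lay 2 bases after the start, in Tnfaip3 the matches lay 125 and 12 bases before it, and in Tlr2 overlapping matches lay 173 and 172 bases and another 8 bases before it. Another RefSeq start of Tnfaip3, not printed, held 0 matches. Irak1, Traf3, Nfkb2 and Map3k7 also differed between the slides and held matches, but their promoters are not printed. RefSeq promoters were found for 27 of the 37 genes, and 12 of these 27 (44.4%) held at least 1 kappaB match at one of their starts, against 2581 of 27025 genes (9.55%) with a promoter in the table. A match is a run of letters, not a measured binding site.

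The first comparison asked whether macrophages that lack EP2 carry more or less RNA of the TLR4 and NF-kB machinery after LPS. None of the 36 genes changed: 0 of 36 passed the threshold, where 0.0193% of all features did, and the smallest adjusted p was 0.450. By unadjusted p under 0.05 there was 1 gene, Nfkbie, against 7.34% of all features. Of the 36 differences, 15 were above and 21 below 0, with a median of -0.025, and the median of all features was -0.025 as well. The point estimates were small, since 35 of 36 lay within 1.5-fold either way (97.2%, against 91.8% of all features). The 95% interval lay within 2-fold for 34 of 36 genes (94.4%, against 82.7% of all features), and the 2 exceptions were Lbp and Nfkbiz. SEs ran from 0.086 to 0.34. Without the slide term 0 of 36 passed the threshold (0.00964% of all features) and 0 of 36 had an unadjusted p under 0.05 (1.98%). With the replicate number as a block these counts were 0 (0% of all features) and 1 (5.45%).

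These counts come from the limma fit with the slide as covariate. The number of differences above 0 rested on single arrays: it was 23 of 36 without WT 2 and 21 of 36 without EP2KO 2. It was 18 with normexp background correction and 16 with quantile normalization. Of all features, 43.4% were above 0 as reported, 52.7% without WT 2 and 50.2% without EP2KO 2. That share was 34.1% with normexp and 56.4% with quantile normalization. Markers of several other cell types moved with genotype without passing the threshold in the fit over both slides. Mast cell markers summed to levels of 31.2 and 33.2 on EP2KO 1 and 2, against 19.2 and 11.9 on WT 1 and 2. On slide 2 their sums were 8.21 and 13.1 on EP2KO 3 and 4, against 2.87 and 3.53 on WT 3 and 4. Of the 7 mast cell markers, 6 were higher at unadjusted p under 0.05. T and NK cell markers summed to 7.08 to 27.8 on EP2KO arrays, against 6.52 to 34.9 on WT arrays, with 9 of 11 lower at unadjusted p under 0.05. Of all features, 7.34% had such a p in either direction. B and plasma cell markers were lower for 10 of 10, with 2 at unadjusted p under 0.05. Fibroblast and mesothelial markers were lower for 12 of 12, also with 2. Neutrophil markers were lower for 5 of 9 and dendritic cell markers for 5 of 7, where 56.6% of all features were lower. The part of these cells in the differences was not tested. In bulk samples, fewer cells of a type and less RNA per cell cannot be told apart.

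**Figure D1:**
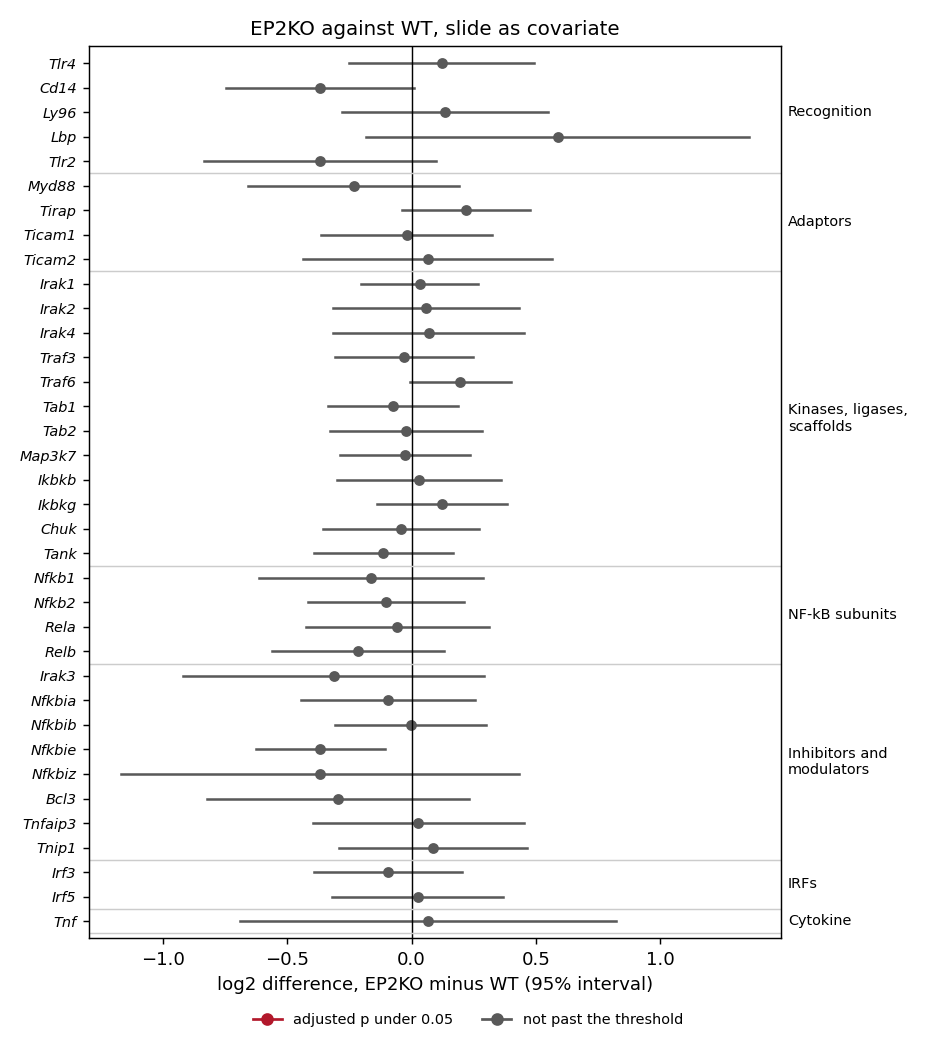
Log2 difference, EP2KO minus WT, of the 36 tested genes, ordered by role down the page; points are the estimates with the slide as covariate and bars their 95% intervals (4 arrays per genotype). All 36 points are grey, since 0 passed the threshold, and the widest intervals belong to Nfkbiz, Lbp and Tnf.

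Among the 5 recognition genes, 3 differences were above and 2 below 0, and 0 passed the threshold. The level of Tlr4 was 1.31, 1.42, 2.47 and 2.89 on EP2KO 1 to 4, against 1.42, 1.70, 2.02 and 1.93 on WT 1 to 4. The genotypes overlapped, with EP2KO arrays holding both the lowest and the highest values, and the difference was 0.12 ± 0.16 (SE, n = 4 each; 95% interval -0.25 to 0.49; limma adjusted p 1.00). Ly96, the LPS-binding partner of TLR4, had levels of 3.37, 3.21, 3.28 and 3.63 on EP2KO arrays, against 3.15, 3.91, 3.31 and 2.17 on WT arrays. All 4 EP2KO values fell inside the WT range, and the difference of 0.13 ± 0.18 turned to -0.033 without WT 4, the lowest array.

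Cd14, the surface protein that hands LPS to the receptor, had levels of 28.5, 28.1, 10.9 and 9.96 on EP2KO arrays, against 28.4, 35.2, 18.5 and 12.9 on WT arrays. Both EP2KO arrays lay below both WT arrays on slide 2, whereas on slide 1 the genotypes overlapped, EP2KO 1 lying just above WT 1. The difference was -0.37 ± 0.16 (95% interval -0.75 to 0.01; limma adjusted p 0.694). Tlr2, the receptor for bacterial lipoproteins, stood at 6.21, 6.50, 2.31 and 3.00 on EP2KO arrays, against 10.1, 10.4, 3.37 and 2.20 on WT arrays. On slide 1 both EP2KO arrays lay below both WT arrays, but on slide 2 the genotypes overlapped, and the difference was -0.37 ± 0.20 (limma adjusted p 0.816).

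Lbp, the serum protein that extracts LPS from bacterial membranes, had the largest point estimate of the 36. Its level was 4.99, 4.80, 0.414 and 0.564 on EP2KO 1 to 4, against 1.74, 4.37, 0.286 and 0.504 on WT 1 to 4. EP2KO lay above both WT arrays on slide 1 by a margin set mainly by WT 1, and the genotypes overlapped on slide 2. The difference of 0.59 ± 0.33 had a 95% interval from -0.18 to 1.36 (limma adjusted p 0.834).

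**Figure D2:**
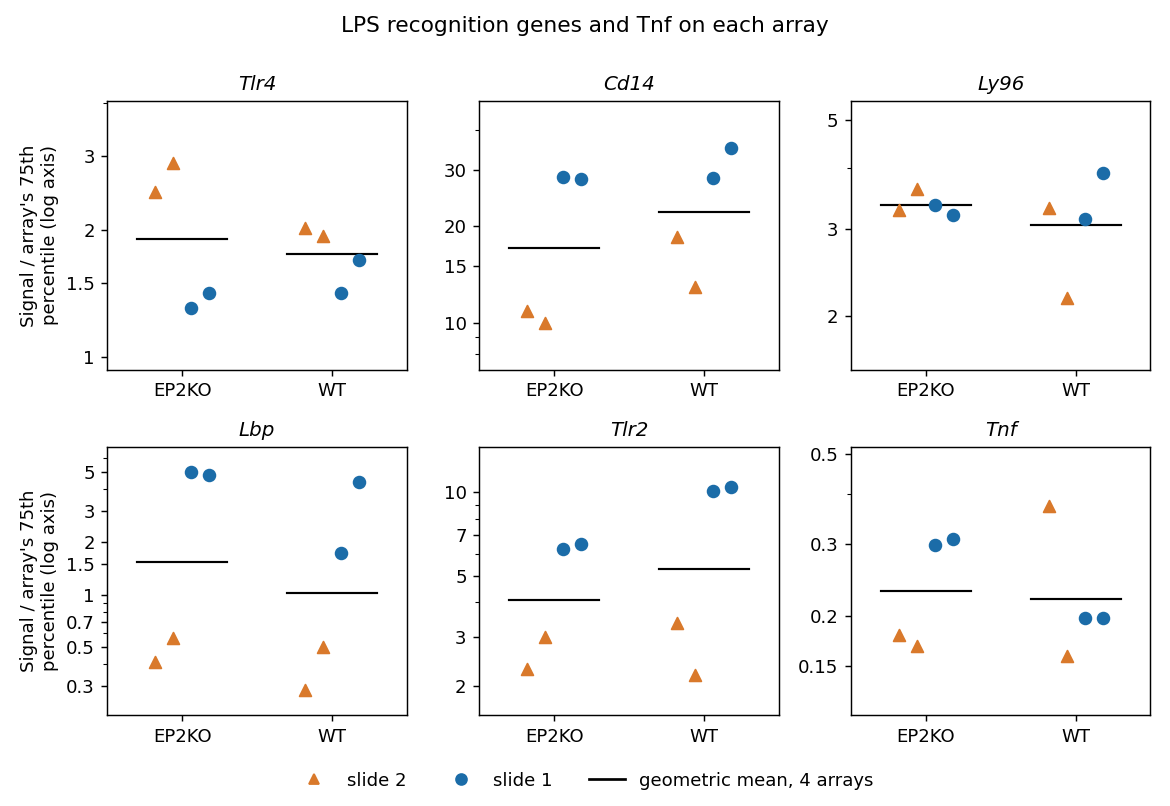
Level of 5 recognition genes and Tnf on each array (signal over the array's 75th percentile, log axes that differ between panels), EP2KO left and WT right; triangles are slide 2, circles slide 1, and lines the geometric mean of 4 arrays. Cd14, Lbp and Tlr2 separate by slide rather than by genotype, with slide 2 low, and Tlr4 has its 4 highest values on slide 2.

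Of the 4 adaptors, 2 had differences above and 2 below 0. Myd88, the adaptor shared by most Toll-like receptors, differed by -0.23 ± 0.18 and Tirap, which brings MyD88 to the membrane, by 0.22 ± 0.11. Ticam1 (TRIF) differed by -0.020 ± 0.15 and Ticam2 (TRAM) by 0.065 ± 0.21, the adaptors of the branch that leads to interferon. None of the 4 passed the threshold.

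The 12 kinases, ligases and scaffolds had 6 differences above and 6 below 0, all between -0.11 (Tank, a scaffold of the TBK1 kinases) and 0.20 (Traf6). Their intervals lay within 2-fold for 12 of 12. Traf6, the ubiquitin ligase downstream of the IRAK kinases, had levels of 0.423, 0.384, 0.436 and 0.437 on EP2KO 1 to 4, against 0.360, 0.361, 0.360 and 0.385 on WT 1 to 4. EP2KO was above WT on both slides without overlap, a pattern that 2.92% of all features showed in this direction, and over all 8 arrays EP2KO 2 lay just below WT 4. The Traf6 difference was 0.20 ± 0.086 (limma adjusted p 0.699). The IkB kinase subunits Ikbkb, Chuk and Ikbkg (IKK beta, IKK alpha and NEMO) differed by 0.029 ± 0.14, -0.043 ± 0.13 and 0.12 ± 0.11, in that order.

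The 4 tested NF-kB subunit genes all had differences below 0, of which 0 passed the threshold. They were -0.056 ± 0.16 for Rela (p65), -0.16 ± 0.19 for Nfkb1 (p105/p50), -0.10 ± 0.13 for Nfkb2 (p100/p52) and -0.21 ± 0.15 for Relb. Irf3 and Irf5, transcription factors that act beside NF-kB on interferon and cytokine genes, differed by -0.095 ± 0.13 and 0.025 ± 0.15.

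Of 8 inhibitors and modulators, 6 had differences below and 2 above 0. Nfkbie, which encodes an inhibitor that holds NF-kB in the cytoplasm, came nearest to the threshold. Its level was 3.80, 3.34, 1.11 and 1.22 on EP2KO 1 to 4, against 4.08, 4.89, 1.66 and 1.45 on WT 1 to 4. EP2KO was below WT on both slides without overlap, as for 4.1% of all features, and the difference was -0.37 ± 0.11 (unadjusted limma p 0.0122, adjusted p 0.450). It was -0.41 on slide 2 and -0.33 on slide 1. Nfkbia, the best-known gene of this class, differed by -0.093 ± 0.15, and by 0.044 without WT 2. Nfkbiz, a nuclear IkB protein needed for a subset of late LPS genes, differed by -0.37 ± 0.34, with a level of 0.493 on WT 2 and 0.162 to 0.206 on the other 7 arrays. The remaining differences were -0.31 ± 0.26 for Irak3 (IRAK-M, a brake on MyD88 signalling), -0.29 ± 0.22 for Bcl3, -0.0029 ± 0.13 for Nfkbib, 0.028 ± 0.18 for Tnfaip3 and 0.086 ± 0.16 for Tnip1, the partner of A20.

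Tnf, the cytokine that stands for the output of the pathway here, had levels of 0.299, 0.309, 0.179 and 0.169 on EP2KO 1 to 4, against 0.197, 0.198, 0.373 and 0.159 on WT 1 to 4. EP2KO was higher on slide 1 without overlap, and on slide 2 its values lay between those of WT 3 and WT 4. The difference was 0.066 ± 0.32 (limma adjusted p 1.00). It changed sign when any of 5 arrays was left out and with normexp background correction.

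The second comparison took EP2KO against WT within each slide, with 2 arrays per genotype. On slide 2 EP2KO was above WT for 28 of 36 genes (77.8%, against 56.7% of all features), with a median difference of 0.19 and one of 0.046 over all features. On slide 1 EP2KO was below WT for 32 of 36 genes (88.9%, against 63.4% of all features), with a median of -0.25 and one of -0.094 over all features. Both held at once for 25 genes (69.4%, against 41.9%). In 14 genes the genotypes did not overlap on either slide and ran in opposite directions (38.9%, against 17.4% of all features), and 10 genes had the same sign on both slides (27.8%, against 36.3%). Nfkbib is in the 25 and in the 14, though another of its 3 probes ran the opposite way on each slide. Sign counts over genes measured on the same arrays are not independent of one another.

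None of the 36 genes passed the threshold on slide 2, where 0.94% of all features did, and 5 had an unadjusted p under 0.05, where 16.6% of all features did. On slide 1, 0 passed, where 0.0193% did, and 6 had an unadjusted p under 0.05, where 13.4% did. The interaction, the test of whether the genotype difference itself differed between the slides, passed for 0 of 36 genes and for 0.0145% of all features, and by unadjusted p under 0.05 for 10 of 36 genes (27.8%, against 21.1%). Nfkb1 had the smallest adjusted p in the interaction, 0.119. Its level was 0.484 and 0.470 on EP2KO 3 and 4, against 0.389 and 0.398 on WT 3 and 4, and 0.583 and 0.611 on EP2KO 1 and 2, against 0.827 and 1.00 on WT 1 and 2. The Nfkb1 difference was thus 0.28 on slide 2 and -0.61 on slide 1. Tnip1 differed by 0.44 on slide 2 and -0.27 on slide 1, Tlr4 by 0.43 and -0.19, Ticam2 by 0.51 and -0.38, and Irak3 by 0.13 and -0.76 in the same order.

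Tnf ran the opposite way to most of the set, with a difference of -0.49 on slide 2 and 0.62 on slide 1. It was the only 1 of the 36 genes that was below WT on slide 2 and above WT on slide 1. Of 29 other NF-kB target genes, 14 ran the way of Tnf (48.3%, against 21.8% of all features) and 3 the opposite way, with medians of -0.26 on slide 2 and 0.19 on slide 1. Other NF-kB regulators were above WT on slide 2 for 17 of 29 and below WT on slide 1 for 27 of 29, with medians of 0.058 and -0.24, and other Toll-like receptor pathway genes for 20 of 30 on either slide, with medians of 0.14 and -0.20. Over the 3 lists 0 genes passed the threshold on slide 1, where 0.0193% of all features did. On slide 2, where 0.94% of all features passed, 1 gene did. It was the adhesion molecule Vcam1 (-3.09, limma adjusted p 0.0336), named after its value was seen.

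The pattern on slide 1 leaned on WT 2. That array had the highest level of the 4 slide 1 arrays for 29 of 36 genes and of all 8 arrays for 22. The share of all features highest on WT 2 was not counted. Without WT 2, EP2KO was still below WT on slide 1 for 28 of 36 genes, with a median of -0.12. All features shifted as well: 56.4% were then below WT on slide 1, against 63.4% with all arrays. Their median was -0.041, against -0.094 with all arrays. The interaction also shifted when a WT array was left out. Without WT 1 it was 1.36 for Irak3, 1.02 for Nfkb1, 1.48 for Nfkbiz and 1.16 for Ticam2. With all arrays these values were 0.89, 0.89, 0.69 and 0.89. The Irak3 difference on slide 1 was -1.23 without WT 1, against -0.76 with all arrays. For Tnf the interaction was -1.73 without WT 4, against -1.11 with all arrays. Each of these fits leaves 1 WT array on a slide, which is assumed to vary like the other groups. Their p-values are therefore not given.

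Macrophage markers ran alike, above WT on slide 2 for 7 of 9 and below WT on slide 1 for 7 of 9. Their summed level was 294 and 344 on EP2KO 3 and 4, against 266 and 220 on WT 3 and 4, and 286 and 302 on EP2KO 1 and 2, against 314 and 382 on WT 1 and 2. Fibroblast and mesothelial markers ran the other way, below WT on slide 2 for 12 of 12 (summed level 26.3 and 4.86 on EP2KO 3 and 4, against 125 and 139 on WT 3 and 4). They were above WT on slide 1 for 10 of 12, but there the sums, 57.9 and 94.7 on EP2KO 1 and 2, against 94.8 and 24.9 on WT 1 and 2, overlapped between genotypes, with the highest on WT 1 and the lowest on WT 2. T and NK cell markers were below WT on slide 2 for 9 of 11 and on slide 1 for 11 of 11, and 0 passed the threshold on either slide. Their summed level on slide 2 ran the other way, 7.08 and 7.50 on EP2KO 3 and 4, against 6.52 and 6.68 on WT 3 and 4. On slide 1 it was 27.8 and 17.97 on EP2KO 1 and 2, against 34.9 and 32.8 on WT 1 and 2. Mast cell markers were above WT on slide 2 for 6 of 7 and on slide 1 for 7 of 7. On slide 2 they passed the threshold for 5 of 7, 4 higher and 1 lower, where 0.94% of all features passed. The part of these cells in the within-slide differences was not tested.

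**Figure D3:**
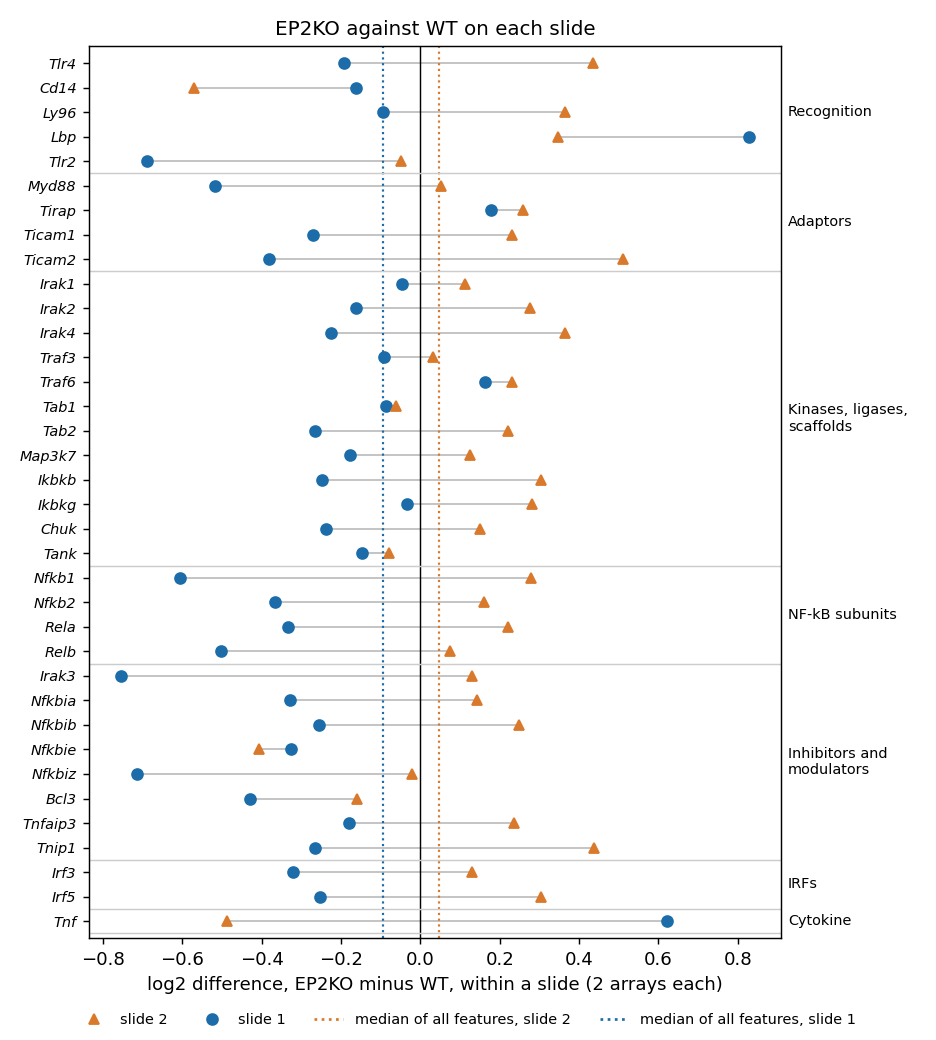
Log2 difference, EP2KO minus WT, of the 36 tested genes on slide 2 (triangles) and slide 1 (circles), 2 arrays per genotype and slide; dotted lines mark the median of all features on each slide. Triangles lie right of 0 for 28 genes and circles left of 0 for 32, and Tnf has them the other way round.

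The third comparison took slide 2 against slide 1, with genotype as covariate, and showed how far these genes varied between the 2 slides. Each slide had its own scan day and its own samples, and these cannot be told apart. In this set 16 of 36 genes changed (44.4%), where 43.2% of all features did. Lower on slide 2 were 12 genes (33.3%, against 18.2% of all features) and higher on slide 2 were 4 (11.1%, against 25.1%). The slide difference was larger in size than the genotype difference in 29 of 36 genes (80.6%, against 82.3% of all features). It passed 2-fold in 7 genes (19.4%, against 19.97%), all of them lower on slide 2, where 9.99% of all features were lower by over 2-fold. The median size was 0.30 over the 36 genes and 0.42 over all features.

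Nfkbia and Nfkbie had the smallest adjusted p-values of the set. Nfkbia stood at 8.38, 7.76, 7.55 and 7.07 on the slide 2 arrays EP2KO 3, EP2KO 4, WT 3 and WT 4, against 26.4, 26.2, 28.3 and 38.6 on the slide 1 arrays EP2KO 1, EP2KO 2, WT 1 and WT 2. The slides did not overlap, and the difference was -1.94 ± 0.15 (SE, n = 4 per slide; limma adjusted p 0.000169). For Nfkbie the difference, from the levels given above, was -1.57 ± 0.11 (limma adjusted p 0.000129).

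Of the recognition genes, 3 were lower on slide 2 and 1 was higher. Lbp fell by 3.10 ± 0.33 on the log2 scale, with 0.286 to 0.564 on slide 2 against 1.74 to 4.99 on slide 1. Tlr2 fell by 1.59 ± 0.20 and Cd14 by 1.24 ± 0.16, without overlap of the slides in either. Tlr4 rose by 0.66 ± 0.16, with 1.93 to 2.89 on slide 2 against 1.31 to 1.70 on slide 1 (limma adjusted p 0.0142, but 0.0741 with normexp background correction). Ly96 differed by -0.16 ± 0.18 and did not pass.

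Of the NF-kB subunits, Relb fell by 0.99 ± 0.15, Nfkb1 by 0.77 ± 0.19 and Nfkb2 by 0.67 ± 0.13, whereas Rela, at -0.12 ± 0.16, did not pass. Besides Nfkbia and Nfkbie, the inhibitors Bcl3 and Irak3 fell by 1.15 ± 0.22 and 1.02 ± 0.26. Tnfaip3, which carries kappaB matches too, rose by 0.53 ± 0.18 (limma adjusted p 0.0487). The call on Tnfaip3 ended in 8 of 15 alternatives, among them the removal of WT 1, WT 3 or any EP2KO array. Nfkbib, Nfkbiz and Tnip1 did not pass. The value of Nfkbib depended on the probe: it was -0.012 for the brightest, which stands for the gene here, and -0.37 and -0.55 for the other two, and with the mean of the 3 probes Nfkbib was lower on slide 2 (-0.31, adjusted p 0.0398).

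Among kinases and ligases, Traf3, a ligase of the interferon branch, fell by 0.50 ± 0.12 and Irak1 by 0.30 ± 0.10. Map3k7 (TAK1) rose by 0.56 ± 0.11 and Irak2 by 0.48 ± 0.16. The other probes of Map3k7 gave 0.31 and 0.12, and the mean of its probes 0.33 (limma adjusted p 0.0452). The other probe of Irak2 gave 0.78, and those of Irak1 -0.27 and -0.11. The calls on Irak1 (adjusted p 0.0480) and Irak2 (adjusted p 0.0458) ended with most single arrays left out: that on Irak1 without any 1 of the 8, and that on Irak2 without any 1 but WT 1. The call on Nfkb1 ended without WT 1 (adjusted p 0.0502) or with normexp (adjusted p 0.0742), and that on Irak3 without WT 4 (adjusted p 0.0511). The other 10 genes kept their call and direction in all 15 alternatives. Among the 15, the deposited series table repeated the main fit, since its values were identical to the processed signal. For genes with 1 probe the mean of probes gave the same difference as well. No adaptor passed, nor did Irf3, Irf5 or Tnf (-0.25 ± 0.32, adjusted p 0.556). Without WT 3, the slide 2 array with the highest Tnf level, Tnf was lower on slide 2 (-0.61, adjusted p 0.0153) and Tab1, a subunit of the TAK1 complex, higher (0.32, adjusted p 0.0482). Without WT 2, Chuk was higher on slide 2 (0.40, adjusted p 0.0237).

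Of the 12 genes lower on slide 2, 8 had a RefSeq promoter and 7 of these held a kappaB match, Irak3 being the exception. Of the 4 higher on slide 2, 3 had a promoter and 2 held a match, Tnfaip3 and Map3k7. Of the 20 that did not pass, 15 had a promoter and 2 held a match, Tank and Tnip1. Of all genes with a promoter 9.55% held a match, and of the members with a promoter 44.4% did. The share among other genes that differed between the slides was not counted. These are counts of letters in a window of 300 bases and were not tested.

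Markers of several cell types other than macrophages differed between the slides as well. Of all features, 18.2% were lower on slide 2 and 25.1% higher. T and NK cell markers summed to levels of 6.52 to 7.50 on slide 2, against 17.97 to 34.9 on slide 1, with 9 of 11 lower. B and plasma cell markers summed to 5.20 to 16.7 on slide 2, against 63.6 to 106 on slide 1, with 9 of 10 lower. Mast cell markers were lower for 6 of 7 and neutrophil markers for 4 of 9 (44.4%), with 2 higher (22.2%). Dendritic cell markers were lower for 4 of 7, with 1 higher, and fibroblast and mesothelial markers for 1 of 12 (8.33%). Of 9 macrophage markers 2 were lower (22.2%) and 1 was higher (11.1%). The part of these cells in the slide differences was not tested.

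**Figure D4:**
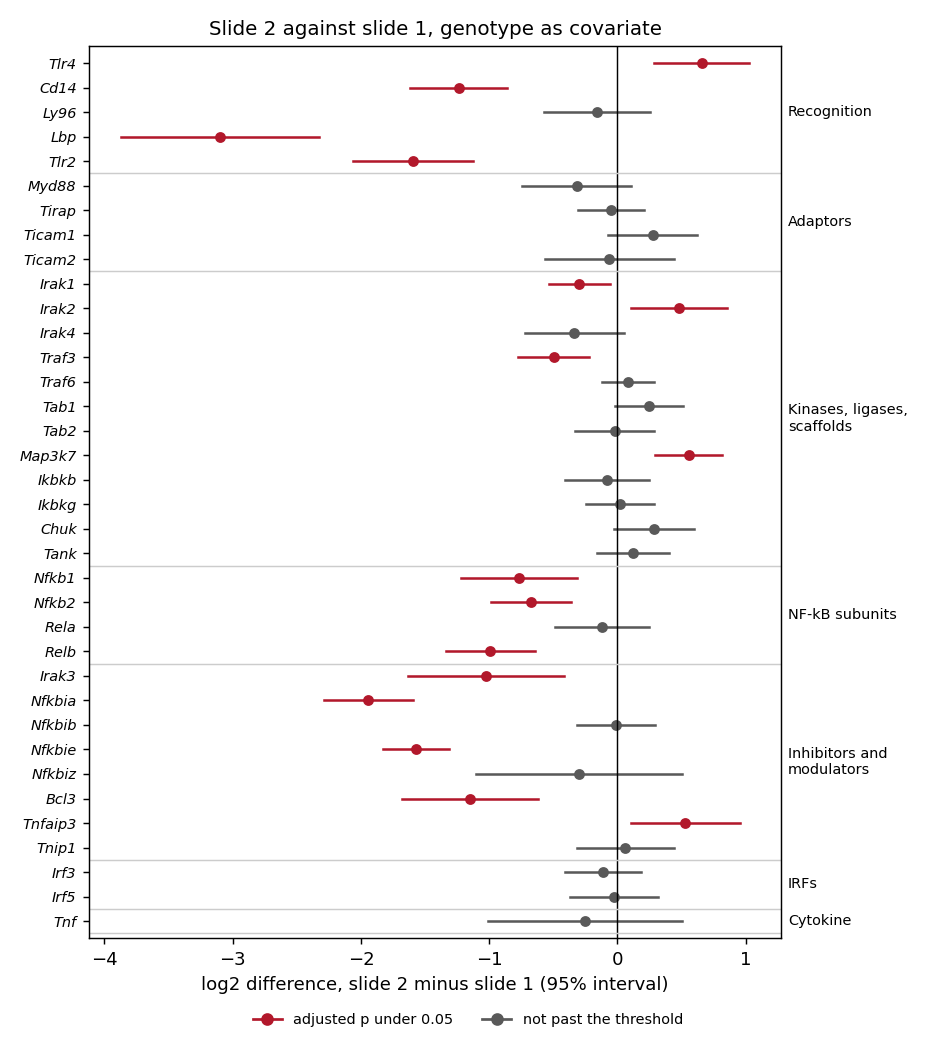
Log2 difference, slide 2 minus slide 1, of the 36 tested genes by role, with 95% intervals (4 arrays per slide, genotype as covariate); red marks an adjusted p under 0.05. The 16 red genes include Lbp at -3.10 and Nfkbia at -1.94 on the left and Tlr4, Irak2, Map3k7 and Tnfaip3 on the right.

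**Figure D5:**
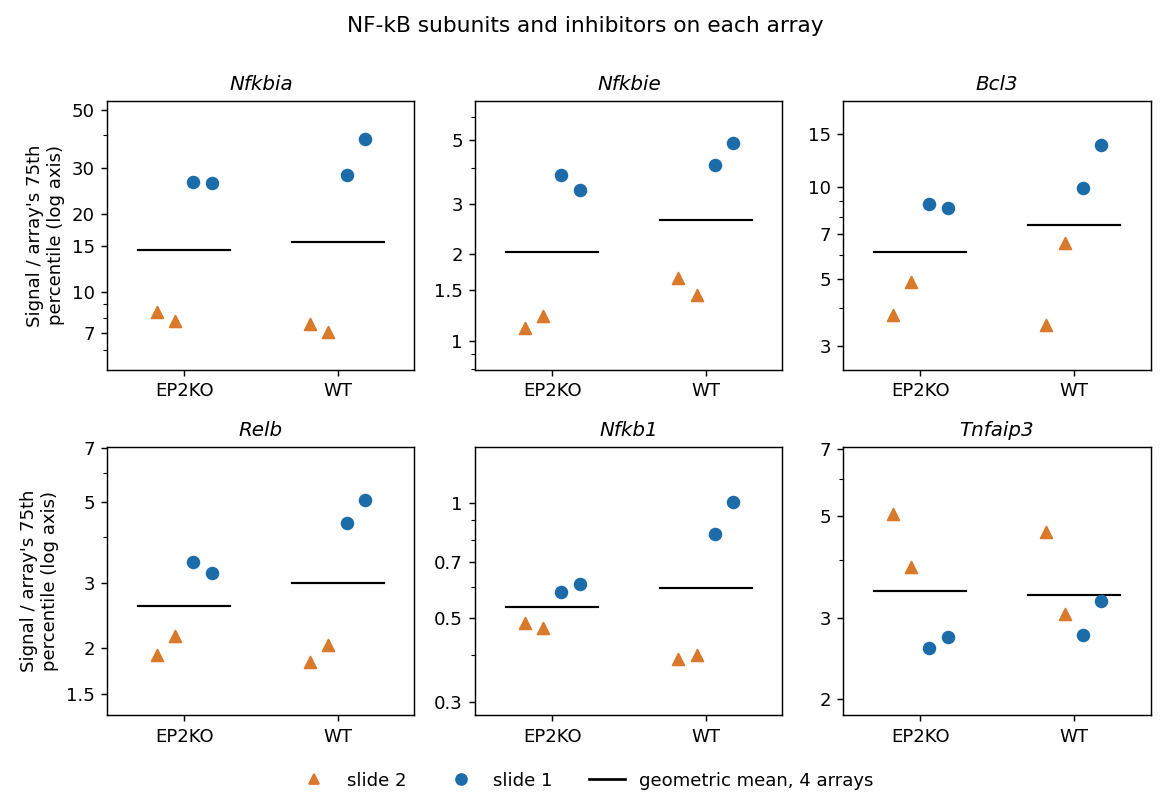
Level of 6 NF-kB subunit and inhibitor genes on each array (signal over the array's 75th percentile, log axes that differ between panels), EP2KO left and WT right; triangles are slide 2, circles slide 1, and lines the geometric mean of 4 arrays. In Nfkbia, Nfkbie, Bcl3, Relb and Nfkb1 all 4 triangles lie below all 4 circles, and Nfkb1 shows EP2KO above WT on slide 2 and below it on slide 1.

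Lists of 3 neighbouring gene groups were tested in the same fits. Of 30 other genes of the Toll-like receptor pathway, 29 other NF-kB regulators and 29 NF-kB target genes tested, 0 changed between EP2KO and WT. By unadjusted p under 0.05 there were 1, 1 and 7 genes (3.33%, 3.45% and 24.1%, against 7.34% of all features), and the medians were -0.0015, -0.057 and -0.072, against -0.025 over all features. The genes with the smallest unadjusted p were Tlr1, a partner of TLR2 (-0.34 ± 0.10), and Sigirr (-0.34 ± 0.15), in the first list. In the second they were Traf1 (-0.46 ± 0.11) and Zfp36 (-0.42 ± 0.18), whose product shortens the life of cytokine RNAs. In the last list they were Ccrl2, an atypical chemokine receptor (0.62 ± 0.12, limma adjusted p 0.207), and the costimulatory receptor Cd40 (-0.59 ± 0.13, limma adjusted p 0.249).

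Between the slides the medians of the 3 lists were 0.31, -0.061 and -0.95, against 0.060 over all features and -0.12 over the 36 genes. Of all features, 25.1% were higher on slide 2 and 18.2% lower. Of the other Toll-like receptor genes 9 were higher (30%) and 3 lower (10%) on slide 2. Among them were the scavenger receptor Cd36 at 2.09, Tlr8 at 1.96, Tlr13 at 1.38 and Sigirr at -1.80 on the log2 scale. Of the other NF-kB regulators 1 was higher (3.45%), Atf3 at 2.37, and 7 were lower (24.1%). The lower ones included Socs1 and Socs3, inhibitors of cytokine receptors, both at -1.79, and Traf1 at -1.30. Of the NF-kB target genes 7 were higher (24.1%) and 15 lower (51.7%) on slide 2. The lower ones included the cytokine Il6 at -5.11, the lectin receptor Clec4e at -2.94, Il1b at -2.80 and the chemokine Cxcl10 at -2.54.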

How the data were processed

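The arrays measured total RNA of macrophages from LPS-treated EP2-KO and wild-type mice, 4 arrays each. Cy3-labelled cRNA was made from 0.5 µg of RNA, per the labels' protocols. Spot intensities in the deposited files are linear, extracted with Feature Extraction 10.7.1.1 per the file headers, whereas the submitters' processing notes name version 9.1; the deposited series table was identical to the processed signal, which is background-corrected but not scaled between arrays.

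From these, log2 of the processed signal minus the array's 75th percentile was taken. Outlier-flagged spots were set missing (for the genes described, no array was missing) and 1377 control spots left out, and spots of 1 probe were averaged. Probes were named through RefSeq transcripts of a GRCm38.p6 gene table (27508 of 39429), used for names only. Probes were kept that were well above background on every array of 1 genotype or of both. Each gene was represented by its brightest kept probe, which left 14493 named genes and 6245 unnamed probes. The 10 members with several probes had 0 disagreements in the sign of the genotype difference over both slides. Within slides a dimmer probe of Nfkbib differed by 0.17 on slide 1 and -0.25 on slide 2. The brightest probe of Nfkbib differed by -0.25 and 0.25 in the same order. The slide moved the probes of 1 gene apart by at most 0.53.

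Tests used limma 3.58.1 (lmFit, eBayes) in R 4.3.3, two-sided, with Benjamini-Hochberg adjustment: genotype with slide as covariate, slide from the same fit, and a fit of the 4 genotype and slide combinations for the within-slide differences and the interaction. The fits were tested on simulated data. The number of arrays limits the precision. Same-numbered arrays deviated from their genotype means together (r across features 0.74, 0.12, 0.55 and 0.43), but each pair shares a slide; after removing the slide mean as well, r was -0.39 and -0.10. Since every r before that removal passed 0.1, the replicate number was also fitted as a block.

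Alternatives covered the slide term, the replicate block, background correction, scaling, filters, choice of probe, variance model and each array left out. All 37 members are named. Arrays are given singly for Tlr4, Cd14, Ly96, Lbp and Tnf, for members with an unadjusted genotype p under 0.05, with genotypes separated in the same direction on both slides, or with an adjusted interaction p under 0.05 (0 members), and for the 4 with the largest slide difference past the threshold. Values of Nfkb1 were added after they had been seen. From each neighbouring list the genes with the largest called difference, or else the smallest p, are named. The members and lists were chosen with earlier results of these data known.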

Additional observations from a re-analysis of the deposited data

Results flagged for a closer look

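In 1 of 72 groups of 4 arrays checked, 1 array stood far from the other 3. Traf6 on WT 4 had a level of 0.385, against 0.360, 0.361 and 0.360 on the other WT arrays, and the gap was 0.948 of the group's range, beyond the critical value of Dixon's test. Chance flags about 3.6 of 72 groups.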

How the results depend on the processing

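No member changed between EP2KO and WT under any of the 17 alternatives. Among the 17, the deposited series table repeated the main fit, since its values were identical to the processed signal. The replicate block left 0 features called over all genes, no slide term 2 and normexp 2, against 4 as reported and 0 to 7 with 1 array left out (7 without WT 2, 0 without WT 1 or WT 3); the replicate block changed no call on a member. The slide comparison called 8967 features as reported and 3533 with normexp. The interaction called 3 as reported, 0 with normexp, 1 with no filter, 14 with probes above background on all arrays, 11 with trended robust eBayes and 0 to 1282 with 1 array left out (1282 without WT 1, 85 without WT 4); members called there numbered 0 to 4. Genotype calls on slide 1 numbered 4 as reported and 3 to 87 with 1 array left out (87 without WT 1, 30 without WT 2; members 0 to 1). Those on slide 2 numbered 195 as reported, 0 with normexp, 94 with quantile normalization, 56 with no filter, 358 with trended robust eBayes and 0 to 691 with 1 array left out (691 without WT 2, 0 without EP2KO 4). Members higher on slide 2 numbered 4 as reported, 1 with normexp, 2 with no filter and 2 to 4 with 1 array left out. With 1 array left out, the genotype difference of Ly96 ran from -0.033 (without WT 4) to 0.24, that of Nfkbia from -0.16 to 0.044 (without WT 2) and that of Tnf from -0.070 (without WT 4) to 0.42. Tnf was also below 0 without WT 1, WT 2, EP2KO 1 or EP2KO 2, and -0.21 with normexp. Under normexp the median of all features moved to 0.18 between slides, against 0.060 as reported, and to -0.15 for EP2KO against WT on slide 2, against 0.046. The cause of these changes was not tested. Normexp was run on the median spot signal, because the scanner columns hold no mean spot signal.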
